A study of Mus musculus with 6 samples.

Results

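The 10 genes described here encode the nuclear receptors and coregulators best known for setting fuel use in the heart, and they were taken as a fixed list of gene symbols out of the 54232 genes in the count files. No measured value enters the rule for the list. They are the 3 peroxisome proliferator-activated receptors (*Ppara*, *Ppard* and *Pparg*), the 3 estrogen-related receptors (*Esrra*, *Esrrb* and *Esrrg*), the retinoid X receptor *Rxra*, the coactivators *Ppargc1a* and *Ppargc1b* (PGC-1α and PGC-1β), and the corepressor *Nrip1*. RNA from heart ventricle was sequenced from 6 mice on western diet (WD), of which 3 received Tributyrin and 3 received vehicle, which the sample labels call PBS, to ask how a source of butyrate changes gene expression in the hearts of obese mice. Tributyrin is a triglyceride that carries 3 butyrate molecules on glycerol. All 6 mice were wild type (WT) C57BL/6J on WD, which the study fed for 15 weeks before treatment, and Tributyrin was given at 5 g/kg body weight for 3 weeks. No mouse on normal chow was among these libraries, so both groups carried the diet and nothing here measures its effect. The labels give neither the age nor the sex of the mice. They do not say whether the mice of a group shared a cage or a day, so the p-values measure only the spread between these samples.

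PPARs bind DNA as partners of a retinoid X receptor and are switched on by fatty acids and their derivatives, and in heart muscle PPARα is the classical activator of fatty acid uptake and oxidation. ERRs bind an extended half-site in front of genes of oxidative phosphorylation and the citric acid cycle. PGC-1 coactivators dock on both kinds of receptor and raise their output, while NRIP1 (RIP140) docks on the same receptors and recruits repressors, so that the balance of coactivator and corepressor helps to set mitochondrial gene expression.

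The 6 libraries held between 20369746 and 32734485 counts on genes, of which mitochondrial transcripts took 23.579% to 28.782%. Counts were scaled to CPM (counts per 1e6 scaled counts) with TMM factors, and the groups were compared with edgeR's quasi-likelihood test over the 14133 genes left by its filter on low counts. *Xist* had at most 6 counts and *Ddx3y* at least 1571 in each library, so all 6 carried the transcripts of male mice. Cardiomyocyte transcripts were abundant in all libraries (summed CPM of 8 markers 54187 to 58847). Of the 8 markers 3 had an unadjusted p under 0.05 in edgeR's model across genes, against 4.25% of all genes. Of these 3, 2 were higher and 1 lower with Tributyrin. The libraries labelled ventricle differed in atrial transcripts (*Nppa*, *Myl7*, *Myl4*, *Sln*, *Bmp10* and *Mybphl*), whose summed CPM was 182, 172 and 53.8 with vehicle and 31.04, 64.4 and 46.3 with Tributyrin. Vehicle replicates 1 and 2 therefore stood apart in this sum, through *Myl7*, *Myl4*, *Sln* and *Mybphl*. *Nppa* did not follow this split. It was at 21.1, 18.4 and 39.8 CPM with vehicle and at 11.2, 15.9 and 27.7 CPM with Tributyrin. Libraries high or low in atrial transcripts are named below by the sum. The 5 atrial markers tested were all lower with Tributyrin, where 7121 of all 14133 genes were lower. An unadjusted p under 0.05 in edgeR's model across genes was found for 4 of the 5, against 4.25% of all genes. *Bmp10* was at or under 1 count. Of 6 markers each, 1 endothelial gene (*Fabp4*, higher with Tributyrin), 1 macrophage gene (*Lyz2*, higher) and 1 fibroblast gene (*Col1a1*, lower) had an unadjusted p under 0.05 in the same model, a level that 4.25% of all genes reached, with summed CPM of 945 to 1077, 168 to 206 and 727 to 909.

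The letters before the start of 2 of these genes are shown because *Esrra* had the highest level of the 10 and *Ppargc1a* is the regulator that stress signals are best known to induce. Both stretches run 5′ to 3′ from 250 to 11 bases before the RefSeq start (GRCm38.p6), on the minus strand, and hold no annotated exon. That of *Ppargc1a* is chr5:51567736-51567975, and its capitals mark a match to the cyclic AMP element half-site TGACGT on the other strand. That of *Esrra* is chr19:6921819-6922058, and its capitals mark 2 matches to the GC box GGGCGG, also on the other strand.
Ppargc1a: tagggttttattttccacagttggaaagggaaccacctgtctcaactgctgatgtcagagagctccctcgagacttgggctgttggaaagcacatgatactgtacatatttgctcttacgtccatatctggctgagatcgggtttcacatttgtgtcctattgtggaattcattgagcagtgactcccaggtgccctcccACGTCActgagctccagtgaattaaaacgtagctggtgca
Esrra: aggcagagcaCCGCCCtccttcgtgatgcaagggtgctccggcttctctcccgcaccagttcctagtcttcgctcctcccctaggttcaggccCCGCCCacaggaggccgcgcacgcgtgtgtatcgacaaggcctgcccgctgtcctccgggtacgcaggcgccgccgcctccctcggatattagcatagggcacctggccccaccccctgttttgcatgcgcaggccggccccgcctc
A set of 7 motifs was searched on both strands of the 250 bases before the start. This was done in the 17 RefSeq promoters of 9 of the 10 genes, and in 32851 promoters in all. The half-site that these receptors share, AGGTCA, was in 3 of the 17 (at *Pparg* and *Rxra*) and in 14% of all promoters. The longer ERR element TNAAGGTCA and the PPAR type direct repeat (2 copies of AGGTCA with any 1 base between them), both of which contain that half-site, were in 0 of the 17 and in 1.14% and 0.0335% of all promoters. The cyclic AMP half-site was in 1 of the 17 (6.47% of all), the MEF2 element in 1, at *Esrrg* (0.14% of all), the GC box in 9 (32.7% of all) and the E-box CACGTG in 0 (6.02% of all). These matches describe the letters only.

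Per kilobase of exon, the ventricle held far more *Esrra* than any other of the 10 genes. Levels between genes are compared as TMM-scaled CPM per kilobase of annotated exon, as the mean ± SD over the 6 libraries of both groups, and this order has no test. *Esrra* stood at 45.8 ± 3.19, followed by *Rxra* at 17.8 ± 0.754, *Ppargc1a* at 15.1 ± 2.13 and *Ppara* at 12.8 ± 1.16. *Esrrg* (9.35 ± 0.657), *Esrrb* (6.15 ± 0.328), *Ppargc1b* (5.30 ± 1.26), *Ppard* (4.94 ± 0.402) and *Pparg* (3.48 ± 0.710) came next, and *Nrip1* was lowest at 2.06 ± 0.208. *Esrra* was above *Rxra* in 6 of 6 libraries, and the steps from *Ppara* to *Esrrg*, *Esrrg* to *Esrrb*, *Ppard* to *Pparg* and *Pparg* to *Nrip1* also held in 6 of 6. *Rxra* was above *Ppargc1a* in 5 libraries and *Ppargc1a* above *Ppara* in 4. *Esrrb* was above *Ppargc1b* in 5 and *Ppargc1b* above *Ppard* in 3, so these neighbours did not differ beyond their spread.

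**Figure D1:**
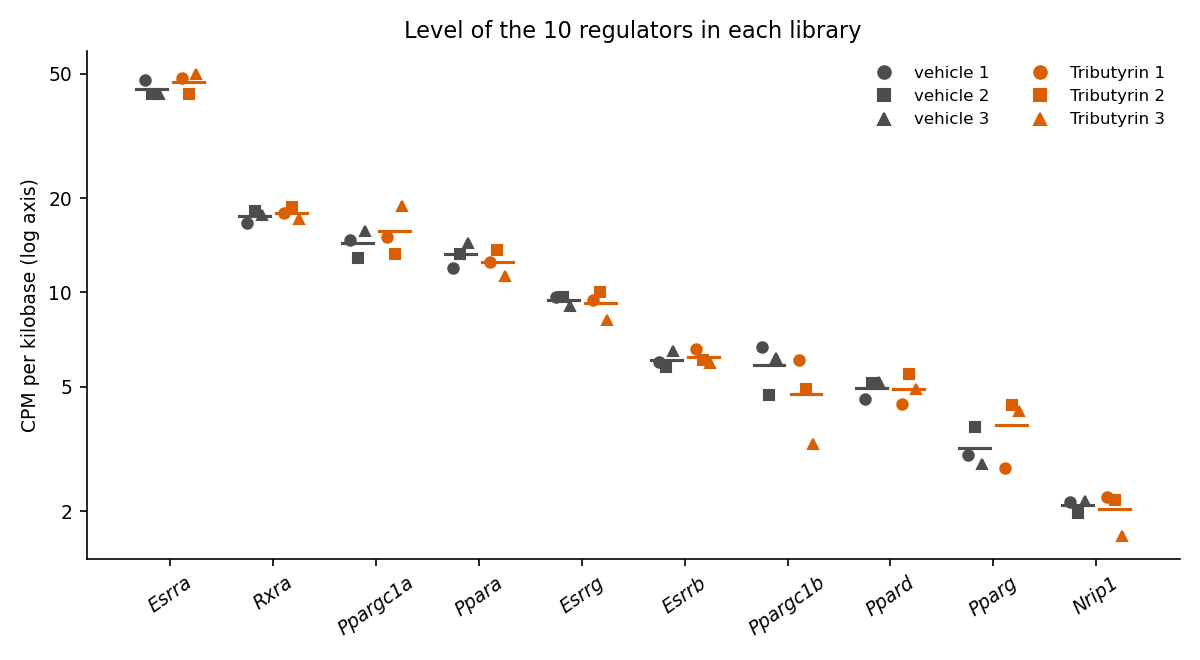
Level of each of the 10 regulators in TMM-scaled CPM per kilobase of exon on a log axis, with 1 point per library and a bar at each group's mean (3 libraries per group). *Esrra* lies highest and *Nrip1* lowest, and the points of the 2 groups overlap for each gene.

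None of the 10 regulators passed the test in either direction with Tributyrin. All 10 passed the filter on low counts, 0 passed an FDR of 10% or of 5% (background 0% of 14133 genes at both), and the adjusted p was 0.999 for each in the edgeR quasi-likelihood fit (Benjamini-Hochberg over all genes tested). At an unadjusted p under 0.05 in the same model there were also 0 of 10, against 4.25% of all genes. DESeq2 (1.8% of 25578 genes, taken without the filter on low counts) and limma-voom (4.28% of 14133) gave 0 of 10 at that level too. In no gene did the CPM of the groups separate (0 of 10, against 8.94% of all genes). On the log2 scale 5 were higher and 5 lower with Tributyrin, and the median of the 10 fold changes was 0.01, beside -0.00129 over all genes. With library size alone as the scaling, which shifted the median of all genes by -0.07, 3 were higher.

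**Figure D2:**
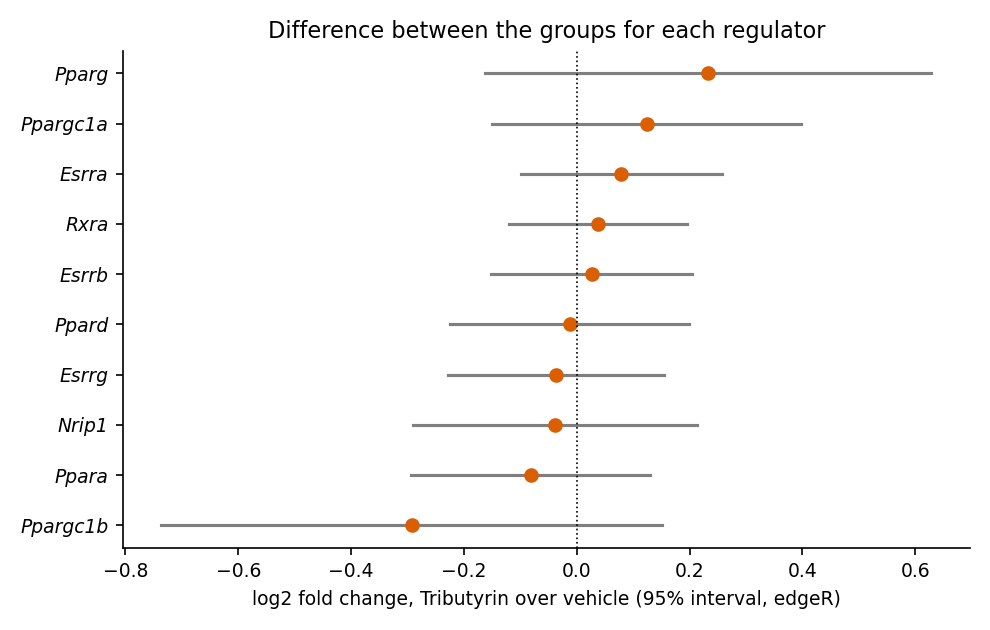
Log2 fold change of each regulator, Tributyrin over vehicle (points), with its 95% interval from edgeR's model (bars) and a dotted line at 0. All 10 intervals span 0, and those of *Ppargc1b* and *Pparg* are the widest.

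Of the PPARs, *Ppara* made up most of the family transcripts in both groups. *Ppara*, whose product drives fatty acid oxidation genes in cardiomyocytes, was at 45.8, 51.0 and 55.3 CPM with vehicle and at 48.1, 52.3 and 43.2 CPM with Tributyrin. The lowest value was in a Tributyrin library and the highest in a vehicle library, and the ranges overlapped. Its log2 fold change was -0.08 (SE 0.095, 95% interval -0.29 to 0.13), which as a percent difference is -18.4% to 9.46%. It was -0.01 without Tributyrin replicate 3, -0.02 without vehicle replicate 3, -0.14 without vehicle replicate 1 and -0.15 without Tributyrin replicate 2. With vehicle replicates 1 and 2, the libraries high in atrial transcripts, left out, only vehicle replicate 3 remained in its group and it was -0.21. With library size alone it was -0.15. *Ppard*, the more widely expressed receptor of the family, was at 34.4, 38.6 and 38.9 CPM with vehicle and at 33.0, 41.1 and 36.9 CPM with Tributyrin. Both the lowest and the highest library were in the Tributyrin group, and the log2 fold change was -0.01 (SE 0.095, interval -0.22 to 0.20).

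*Pparg*, the receptor best known from fat cells, was the least abundant PPAR and one of the most variable of the 10 genes. It was counted 176 to 372 times per library, for 8.93, 11.0 and 8.33 CPM with vehicle and 8.12, 12.9 and 12.3 CPM with Tributyrin. Tributyrin replicates 2 and 3 were the highest libraries and Tributyrin replicate 1 the lowest, so the groups overlapped. The coefficient of variation was 14.7% with vehicle and 23.6% with Tributyrin, against a counting error of at most 7.54%. The log2 fold change was 0.23 (SE 0.178, interval -0.16 to 0.63). It ran from 0.11 without Tributyrin replicate 2 to 0.42 without Tributyrin replicate 1, where the unadjusted p in edgeR's model across genes was 0.0125 and the adjusted p 1. With the libraries high in atrial transcripts left out, so that vehicle replicate 3 stood alone for its group, it was 0.41.

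Transcripts of fat cells (*Adipoq*, *Plin1*, *Cidec*, *Retn*, *Lep*, *Cfd*, *Adrb3* and *Ucp1*) were near 0 in each library but not even between them. Their summed CPM was 0.869, 2.39 and 0.804 with vehicle and 0.783, 3.42 and 0.653 with Tributyrin, from 15 to 98 counts in all, and *Ucp1* was at 0 in all libraries. The second replicate of each group held the most of these transcripts and was the highest (Tributyrin) and, after Tributyrin replicate 3, the next highest (vehicle) in *Pparg*. Tributyrin replicate 3 held the least of them, though its *Pparg* was above that of all vehicle libraries. The part of fat cell transcripts in the level of *Pparg* was not tested. In ventricle RNA, a change in the number of cells of a type and a change in RNA per cell cannot be told apart.

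**Figure D3:**
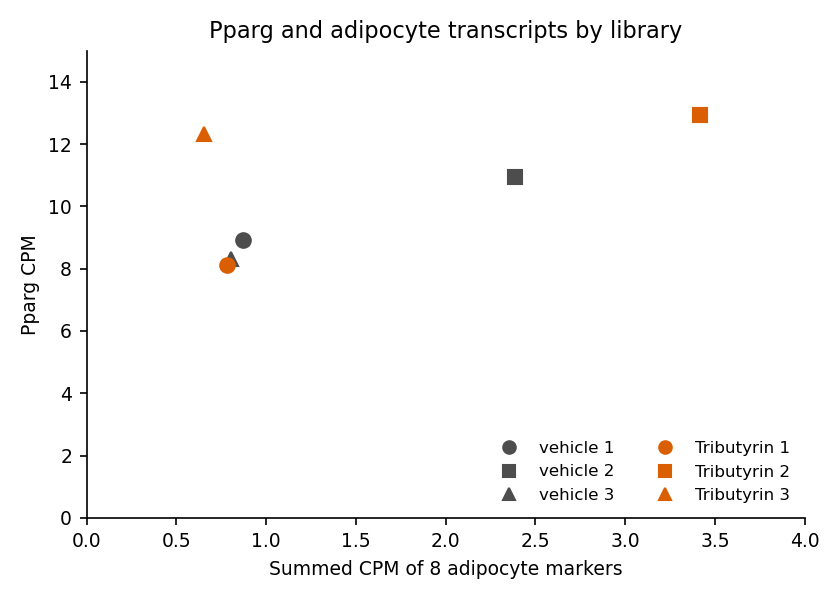
CPM of *Pparg* (vertical) against the summed CPM of 8 adipocyte markers (horizontal), 1 point per library. Vehicle 2 and Tributyrin 2 lie to the right at 2.39 and 3.42 of summed CPM, and Tributyrin 3 lies high at the left with 12.3 CPM of *Pparg*.

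As shares of PPAR transcripts per kilobase, *Ppara* took 61.8% ± 2.24 of the family in the vehicle libraries and 59.1% ± 4.25 in the Tributyrin libraries (SD, n = 3 each). *Ppard* took 23.2% ± 0.170 and 23.2% ± 0.899, and *Pparg* 14.9% ± 2.14 and 17.7% ± 3.37. The share of *Ppara* was lowest in Tributyrin replicate 3 (55.4%) and highest in vehicle replicate 3 (64.3%), and the ranges overlapped for all 3 receptors.

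*Rxra*, the obligate DNA-binding partner of the PPARs, varied least of the 10 genes over the 6 libraries. It was at 91.2, 99.5 and 96.6 CPM with vehicle and at 98.3, 102.7 and 93.8 CPM with Tributyrin. The coefficient of variation was 4.43% and 4.53%, and the log2 fold change was 0.04 (SE 0.071, interval -0.12 to 0.19), or -8.04% to 14.4% in percent. Its sign turned with library size alone as the scaling (-0.04). Per kilobase *Rxra* was not the main retinoid X receptor of this tissue, since it took 27.1% ± 0.709 of the family with vehicle and 26.7% ± 2.48 with Tributyrin (SD, n = 3). *Rxrg* took 53.6% ± 0.786 and 54.5% ± 3.31, and *Rxrb* 19.3% ± 0.0886 and 18.8% ± 0.903. This order rests on the annotated exonic lengths, 5462 bases for *Rxra* and 2297 for *Rxrg*. In mean CPM without length *Rxra* was above *Rxrg*, at 95.8 against 79.6 with vehicle and 98.2 against 84.7 with Tributyrin.

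The log2 fold changes of the 3 ERR genes all lay within 0.1 of 0. *Esrra*, whose product binds in front of many genes of oxidative phosphorylation, was at 209.3, 188.2 and 189.3 CPM with vehicle and at 212.4, 188.6 and 219.0 CPM with Tributyrin. The 2 highest libraries were of the Tributyrin group, but vehicle replicate 1 lay above Tributyrin replicate 2. The log2 fold change was 0.08 (SE 0.080, interval -0.10 to 0.26), or -6.64% to 19.5% in percent. It was 0.04 without Tributyrin replicate 3, 0.05 without vehicle replicate 2, 0.14 without either vehicle replicate 1 or Tributyrin replicate 2, and 0.01 with library size alone. *Esrra* shares 73 exonic bases with *Trmt112* on the opposite strand, which had 199 to 375 counts where *Esrra* had 4001 to 6390.

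*Esrrg*, which in heart muscle is known to act on the same promoters as *Esrra*, was at 60.2, 59.8 and 56.3 CPM with vehicle and at 58.8, 62.3 and 50.7 CPM with Tributyrin. Its lowest and highest library both belonged to the Tributyrin group, and the log2 fold change was -0.04 (SE 0.086, interval -0.23 to 0.15). *Esrrb*, best known from stem cells and the inner ear, was at 36.4, 34.9 and 39.4 CPM with vehicle and at 39.9, 36.8 and 35.9 CPM with Tributyrin. These values overlapped closely, and the log2 fold change was 0.03 (SE 0.080, interval -0.15 to 0.20), with the sign turned under library size alone (-0.05). Of the ERR transcripts per kilobase *Esrra* took 74.1% ± 0.987 with vehicle and 75.3% ± 2.63 with Tributyrin (SD, n = 3), *Esrrg* 15.8% ± 0.670 and 14.8% ± 2.11, and *Esrrb* 10.2% ± 0.832 and 9.93% ± 0.575.

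The PGC-1 coactivators carried the largest spread among the Tributyrin libraries together with *Pparg*. *Ppargc1a*, the coactivator induced by cold, fasting and exercise, was at 96.9, 84.8 and 103.4 CPM with vehicle and at 98.9, 87.6 and 124.2 CPM with Tributyrin. Tributyrin replicate 3 lay above the other 5 libraries, which ran from 84.8 to 103.4. The log2 fold change was 0.12 (SE 0.124, interval -0.15 to 0.40). Without Tributyrin replicate 3 it was -0.02, without vehicle replicate 2 it was 0.05, and without Tributyrin replicate 2 it was 0.23. With vehicle replicates 1 and 2, the libraries high in atrial transcripts, left out together, which leaves vehicle replicate 3 alone, it was -0.00125.

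*Ppargc1b*, the relative of *Ppargc1a* that coactivates the same receptors, was at 26.6, 18.7 and 24.7 CPM with vehicle and at 24.2, 19.6 and 13.1 CPM with Tributyrin. Tributyrin replicate 3 was again the extreme, here the lowest, and vehicle replicate 2 was the next lowest. The coefficient of variation was 17.7% with vehicle and 29.6% with Tributyrin, against a counting error of at most 5.77%, and both were the largest of the 10 genes. The log2 fold change was -0.29 (SE 0.200, interval -0.74 to 0.15), or -40.0% to 11.1% in percent. It was -0.09 without Tributyrin replicate 3, -0.18 without vehicle replicate 1 and -0.50 without Tributyrin replicate 1, where the unadjusted p in edgeR's model across genes was 0.0191 and the adjusted p 1. With no filter on low counts the unadjusted p in edgeR's model was 0.00988 and the adjusted p 0.569. That fit called 167 of all genes at an FDR of 10%, where the fit with the filter called 0.

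Tributyrin replicate 3 also stood apart by transcript length. After centring each gene on its mean over the 6 libraries, the median log2 CPM of genes with under 2000 exonic bases was 0.13 in that library and between -0.05 and 0.03 in the others. For genes with over 6000 exonic bases it was -0.09 in that library and between -0.01 and 0.05 in the others. *Ppargc1a* has 6592 exonic bases and *Ppargc1b* 3990, so they fall in the long and the middle class. The part of transcript length in the values of *Ppargc1a*, *Ppargc1b* and the other members was not tested.

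*Nrip1*, the corepressor, was at 24.5, 22.6 and 24.6 CPM with vehicle and at 25.5, 24.96 and 19.1 CPM with Tributyrin. Tributyrin replicate 3 was lowest and the other 2 Tributyrin libraries were highest. The log2 fold change was -0.04 (SE 0.113, interval -0.29 to 0.21), and with 11457 exonic bases *Nrip1* is the longest of the 10 genes.

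A set of 6 ratios was compared within libraries, where library scaling cancels, as log2 ratios per exonic length with 0.5 added to each count, by a two-sided exact permutation test that with 3 mice against 3 can give no p under 0.1. The balance of coactivator over corepressor, *Ppargc1a*/*Nrip1*, was 2.78 ± 0.08 in the vehicle group and 2.95 ± 0.48 in the Tributyrin group (SD, n = 3 each), a difference of 0.17 (SE 0.278, exact p = 0.9, adjusted p = 0.9 over the 6 ratios). *Ppargc1b*/*Nrip1* was 1.47 ± 0.20 and 1.20 ± 0.24, a difference of -0.28 (SE 0.180, exact p = 0.2, adjusted p = 0.84). The second difference was larger than the SD of either group, but the groups overlapped and neither ratio was separated by the exact test.

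*Ppargc1a*/*Ppargc1b* showed 1 library apart from the rest. The log2 ratio was 1.14, 1.46 and 1.34 with vehicle and 1.31, 1.44 and 2.52 with Tributyrin, and the highest value belonged to Tributyrin replicate 3. In that library *Ppargc1a* took 78.0% and *Ppargc1b* 13.5% of PGC-1 family transcripts per kilobase (*Pprc1* being the remaining member), where the other 5 libraries had 61.5% to 63.7% and 22.8% to 27.9%. The difference between the groups was 0.44 (SE 0.397, exact p = 0.5, adjusted p = 0.84), and it was 0.06 without that library. *Ppara*/*Ppard* differed by -0.07 (SE 0.098, exact p = 0.5), *Esrra*/*Esrrg* by 0.12 (SE 0.154, exact p = 0.6) and *Rxra*/*Rxrb* by 0.02 (SE 0.050, exact p = 0.7), each with an adjusted p of 0.84. The groups overlapped in all 6 ratios.

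**Figure D4:**
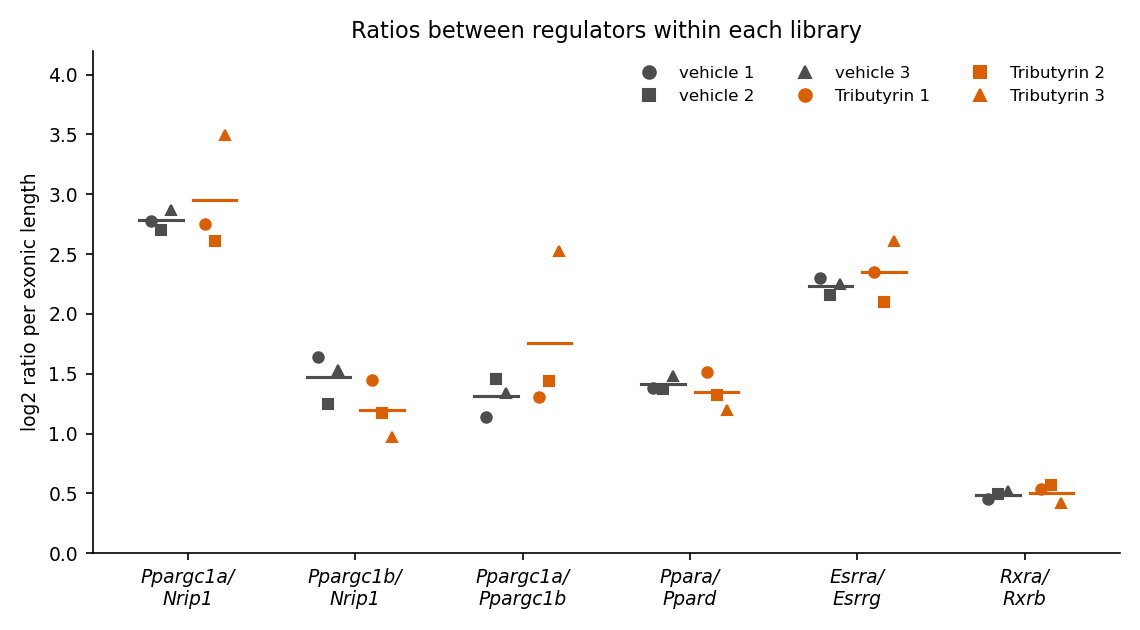
Log2 ratio of pairs of regulators per exonic length within each library, with 1 point per library and a bar at each group's mean (3 libraries per group). The groups overlap in all 6 ratios, and Tributyrin 3 lies at 2.52 in *Ppargc1a*/*Ppargc1b* where the other 5 libraries lie between 1.14 and 1.46.

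The genes whose pattern over the 6 libraries was most like that of a regulator were looked up for the 3 most variable ones, by the root mean square difference of mean-centred log2 CPM. Nearest to *Ppargc1b* were *Zmym1* (0.050), *Lrrc8d* (0.053) and *Lcor* (0.075). Nearest to *Pparg* were *Ccl9* (0.055), *Cpm* (0.086) and *Cdkn1c* (0.096), and nearest to *Ppargc1a* were *Cox17* (0.033), *Stard3* (0.040) and *Rps27* (0.046). With 6 libraries and 14133 genes these are descriptions of likeness only.

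The partners and coregulators of the 10 genes also held no gene past the test. Of 18 genes in this list (the other retinoid X receptors, p160 and mediator coactivators, acetyltransferases, corepressors and downstream factors), 0 passed an FDR of 10% and 0 had an unadjusted p under 0.05 in edgeR's model, against 0% and 4.25% of all genes (2 had such a p without Tributyrin replicate 2). Of these 6 were higher (49.6% of all genes were) and 12 lower with Tributyrin (median log2 fold change -0.02), 11 were higher without Tributyrin replicate 3, 10 without either vehicle replicate 1 or vehicle replicate 3, and 1 with library size alone. *Pprc1*, the remaining PGC-1 family gene, had the lowest value (-0.20, SE 0.130) and *Rxrg* the highest (0.09, SE 0.087). Without Tributyrin replicate 3 these were -0.08 and 0.03, and without Tributyrin replicate 2 they were -0.32 and 0.17. *Rxrb* was at 0.02 (SE 0.068) and the corepressor *Ncor1* at -0.03 (SE 0.096). *Perm1*, a muscle factor that works with PGC-1 and ERR, was at 0.05 (SE 0.064), and *Tfam*, the mitochondrial transcription factor, at -0.03 (SE 0.082). Across the scalings, *Perm1* turned to -0.02 and *Rxrb* to -0.06 with library size alone.

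Among known PPAR targets more genes lay above 0 than among the receptors. An FDR of 10% was passed by 0 of 24 targets and by 0% of all genes. In edgeR's model 22 were higher with Tributyrin (49.6% of all genes were) and the median log2 fold change was 0.13, or 19 and 0.06 with library size alone. All 24 were measured in the same mice, so they are not independent observations. By library, the median of their centred log2 CPM was 0.009, -0.097 and -0.121 with vehicle and 0.102, 0.042 and 0.017 with Tributyrin. Vehicle replicate 1 thus lay close to Tributyrin replicate 3. An unadjusted p under 0.05 was found for 6 of 24, all higher, against 1.97% of all genes higher at that level (DESeq2 gave 7 and limma-voom 6). This count was 2 without vehicle replicate 3, 3 without Tributyrin replicate 1 and 2 with library size alone. It was also 2 with an atrial marker score as a covariate. The count was 8 without either Tributyrin replicate 2 or Tributyrin replicate 3, and 9 with no filter on low counts. The groups did not overlap in 7 of 24 genes (8.94% of all genes).

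Among the genes at an unadjusted p under 0.05 in edgeR's model were *Acot1* and, named after their values were seen, the β-oxidation genes *Acadl* (0.16), *Decr1* (0.18) and *Ech1* (0.20) and the lipoprotein lipase gene *Lpl* (0.17), with log2 fold changes in parentheses. In the last 4 of these all 3 Tributyrin libraries lay above all 3 vehicle libraries. *Hadha* and *Hadhb*, also named after their values were seen, were among the 7 genes without overlap too, with log2 fold changes of 0.12 and 0.13.

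*Angptl4*, an inhibitor of lipoprotein lipase and a sensitive PPAR target, had the highest log2 fold change of the list (0.50, SE 0.226). It was at 6.40, 10.5 and 6.62 CPM with vehicle and at 11.2, 8.30 and 14.2 CPM with Tributyrin, so Tributyrin replicate 2 lay within the vehicle range. Its log2 fold change was 0.30 without Tributyrin replicate 3, where that of *Acot1* was higher (0.61), and 0.78 without vehicle replicate 2. *Acot1*, an acyl-CoA thioesterase gene, was at 22.7, 19.5 and 18.5 CPM with vehicle and at 26.9, 34.8 and 21.8 CPM with Tributyrin (0.46, SE 0.154), and since its near-identical neighbour *Acot2* can share its reads this value is uncertain. Without Tributyrin replicate 2 it was 0.27, with an unadjusted p of 0.0593 in edgeR's model across genes. With no filter on low counts edgeR called both, with adjusted p of 0.0539 for *Angptl4* and 0.00421 for *Acot1*, beside 167 of all genes, while the adjusted p of both was 0.999 with the filter.

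Other PPAR targets were nearer to 0 or varied more between mice. *Pdk4*, the kinase that shuts off pyruvate dehydrogenase, was at 0.17 (SE 0.187) and *Ucp3*, a mitochondrial carrier, at 0.20 (SE 0.210), and each changed sign when 1 Tributyrin library was left out (replicate 2 gave -0.06 for *Pdk4* and replicate 1 gave -0.02 for *Ucp3*). *Cpt1b*, the muscle form of the enzyme that admits fatty acids to mitochondria, had the lowest value (-0.16, SE 0.135). It was counted at only 4.57 to 5.93 CPM, and 81.4% of its exonic bases are shared with *Gm44502*, which had 0 counts, so its values are uncertain.

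All 15 ERR targets were higher with Tributyrin by small amounts with TMM scaling, where 49.6% of all genes were higher. With library size alone as the scaling it was 8 of 15. The median log2 fold change was 0.08 (0.13 without Tributyrin replicate 2) and 0 of 15 passed an FDR of 10%, against 0% of all genes. By library, the median of their centred log2 CPM was -0.01, -0.06 and -0.05 with vehicle and 0.07, -0.05 and 0.09 with Tributyrin. The mitochondrial share of counts in the same libraries was 26.5%, 23.6% and 24.1% with vehicle and 27.7%, 25.9% and 28.8% with Tributyrin, so the 2 libraries highest in one were also highest in the other. The part of the mitochondrial share in this result was not tested. Leaving mitochondrial transcripts out of library size changes only the scaling, and all 15 were higher there too. In edgeR's model 1 gene, the muscle cytochrome oxidase subunit *Cox6a2* (named after its values were seen), had an unadjusted p under 0.05 (0.19, SE 0.073), where 4.25% of all genes did, so the count is near the background. *Cox6a2* has 680 exonic bases and was highest in Tributyrin replicate 3, the library in which short genes were higher, and the part of length in its value was not tested. The count was 7 without Tributyrin replicate 2 and 0 with vehicle replicate 1, 2 or 3 or Tributyrin replicate 3 left out. *Cycs*, which encodes cytochrome c, was highest at 0.19 (SE 0.101). *Idh3a*, a citric acid cycle gene, was at 0.08 (SE 0.077) and *Slc25a4*, the adenine nucleotide carrier of heart muscle, at 0.13 (SE 0.085). Without Tributyrin replicate 3 these were 0.03 and 0.05, and without Tributyrin replicate 2 they were 0.15 and 0.20. For *Cycs* the values were 242, 220 and 224 CPM with vehicle and 280, 219 and 286 CPM with Tributyrin, and Tributyrin replicate 2 lay below the vehicle libraries. Differences between the list medians and the regulators were not tested.

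**Figure D5:**
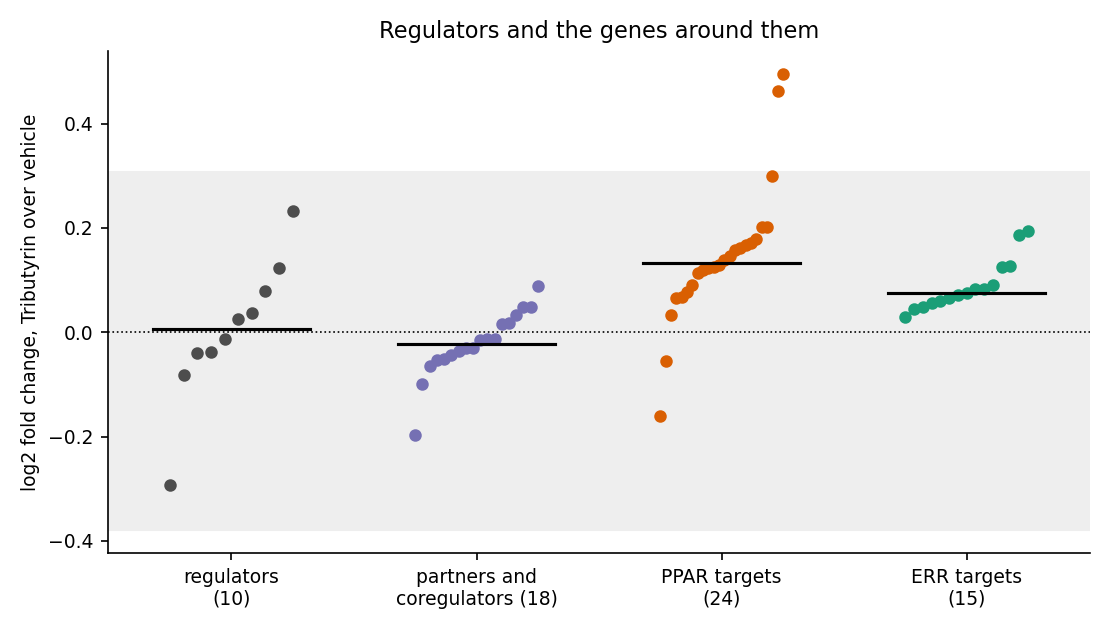
Log2 fold change of each gene, Tributyrin over vehicle, for the 10 regulators, 18 partners and coregulators, 24 PPAR targets and 15 ERR targets, with a bar at each list's median and a grey band from the 5th to the 95th percentile of all genes tested (-0.38 to 0.31). The medians are 0.01, -0.02, 0.13 and 0.08 with TMM scaling, the ERR targets are all above 0 with TMM scaling but 8 of 15 with library size alone, and *Angptl4* and *Acot1* are the 2 points above the band.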

How the data were processed

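Whole-number counts of reads per Ensembl gene were deposited by the authors without normalization, 1 table per mouse. Libraries had been prepared with a stranded mRNA kit and sequenced as single-end reads of 50 bases. The submitters' processing notes name cutadapt 1.13, STAR, HTSeq 0.6.1p1, DESeq2 1.14.1 and the build mm10. Which annotation release and strand setting the counting used is not given in the sources used here. Gene symbols, positions and exonic lengths came from GENCODE M21 (GRCm38), to which 54079 of 54232 identifiers (99.72%) matched, and promoters from RefSeq. Symbols of the 10 members and of the lists all matched.

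Samples were grouped by their treatment label. Counts were scaled with TMM, filtered with filterByExpr (minimum count 10, minimum total 15) and compared with edgeR 4.0.16 (R 4.3.3), quasi-likelihood test, Benjamini-Hochberg adjustment over the 14133 genes left, no covariate, at FDR 10% (5% also given). The study used DESeq2, which is an alternative here (version 1.42.0), as is limma-voom (3.58.1). Other alternatives were the scaling, the filter, a block for the replicate number, and fits that leave out 1 mouse at a time. The ratios within libraries were compared with exact permutation tests. Steps were tested on simulated data. Lists were described by counts and medians, with no set test. The members and lists, and the tests, were chosen with earlier results of these data known. Genes named are the 10 members, the extremes of each list, preset targets, markers and the 3 genes most like each of the 3 most variable members. Others are said to be named after their values were seen. A few single genes of the lists are counted in them but not reported by name. The lists of markers were of cardiomyocyte, atrial, adipocyte, endothelial, macrophage and fibroblast genes. No 2 libraries agreed within sampling noise, with a chi-square per degree of freedom of 6.67 to 28.22 for each pair. Intervals cover the spread fitted by the model, and counting errors cover counting only. Figures were drawn with Python 3.11.15 and matplotlib 3.10.9.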

Additional observations from a re-analysis of the deposited data

How the results depend on the processing

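With 3 mice per group and an SE of 0.07 to 0.20 on the log2 scale, differences of the sizes seen in these regulators could not be told from 0. The count of regulators past an FDR of 10% was 0 under all 17 alternatives, and their adjusted p ran from 0.548 to 1. The alternatives on bias-adjusted deviances, on the atrial marker score as a covariate and on the libraries low in atrial transcripts were chosen after the data were seen. *Ppara*, *Pparg*, *Ppargc1b* and *Esrra* kept their sign under all 17. In the statements below the cause was not tested.

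With library size alone, 3 regulators, 1 partner and 8 ERR targets were higher with Tributyrin, and the medians were -0.0657 (regulators), -0.0927 (partners), 0.0591 (PPAR targets) and 0.000279 (ERR targets). The log2 fold change then turned to -0.0354 for *Rxra*, -0.046 for *Esrrb*, -0.0235 for *Perm1* and -0.0575 for *Rxrb*. With mitochondrial transcripts left out of library size *Rxrb* was at -0.00384. With no filter on low counts, 1 regulator (*Ppargc1b*) had an unadjusted p under 0.05 in edgeR's model and 2 PPAR targets passed 10%. This alternative called 167 genes in all, and DESeq2 called 11 of 12977.

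With the atrial score as a covariate, *Esrrb* was at -0.0318, *Esrrg* at 0.0127, *Tfam* at 0.00895 and *Ncor1* at 0.0295. With only the libraries low in summed atrial transcripts, vehicle replicate 3 was the single vehicle library, so the spread between vehicle mice has no estimate. In that fit *Ppargc1a* was at -0.00125, *Esrrb* at -0.0714, *Esrrg* at 0.0225, *Tfam* at 0.0633 and *Ncor1* at 0.0242, and the median of PPAR targets was 0.203.

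Leaving out 1 mouse at a time gave 0 to 2 regulators at an unadjusted p under 0.05 in edgeR's model (2 without Tributyrin replicate 1) and 6 to 11 partners higher with Tributyrin. Log2 fold changes ran from -0.149 to -0.011 for *Ppara*, 0.0383 to 0.141 for *Esrra*, -0.0958 to 0.0689 for *Ppard*, -0.0239 to 0.231 for *Ppargc1a*, -0.0147 to 0.0749 for *Esrrb*, -0.102 to 0.0444 for *Esrrg* and -0.107 to 0.0822 for *Nrip1*. They ran from -0.0591 to 0.38 for *Pdk4*, -0.0206 to 0.486 for *Ucp3*, -0.0731 to 0.0264 for *Tfam* and -0.122 to 0.0586 for *Ncor1*. Differences of log2 ratios ran from -0.105 to 0.338 for *Ppargc1a*/*Nrip1*, -0.151 to 0.00559 for *Ppara*/*Ppard*, -0.00754 to 0.249 for *Esrra*/*Esrrg* and -0.0111 to 0.0654 for *Rxra*/*Rxrb*.

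The labels do not say whether same-numbered samples share more than a number. The correlations of their deviations were 0.21, 0.04 and 0.01, which do not settle it. With the replicate number as a block 0 regulators passed 10% and 2 of all genes did, 5 regulators were higher, and *Ppargc1b* was at -0.312 with an adjusted p of 0.977 in edgeR's test.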
